A study of Mus musculus with 92 samples.

Results

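The growth hormone receptor and IGF1 axis of the liver was followed here through 10 genes chosen by name: the ligand Igf1, its circulating partners Igfals, Igfbp1, Igfbp2 and Igfbp4, the receptors Ghr and Igf1r, the transcription factors Stat5a and Stat5b, and the feedback inhibitor Socs2. These were 10 of the 17275 genes whose counts could be used, and all 10 passed the filter on low counts. The livers came from fasted HET3 mice, a cross of several inbred strains in which each animal has its own genotype. Female mice were compared in 6 groups, formed by 2 ages at death (6 and 24 months) and 3 diets: Control, Low Amino Acid and Low Isoleucine, the last named for a branched-chain amino acid that mice must eat. By the labels, the 6-month mice began their diet at 9 weeks of age and the 24-month mice at 6 months of age, whereas the series text gives 13 weeks on diet for both, so age, age at diet start and time on diet cannot be told apart. The 6-month groups held 8 Control, 8 Low Amino Acid and 7 Low Isoleucine libraries, and the 24-month groups held 8, 7 and 8. Male mice on the same diets enter only through the authors' deposited table.

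Growth hormone from the pituitary binds its receptor Ghr on hepatocytes and activates the kinase JAK2, which phosphorylates STAT5A and STAT5B. STAT5B carries most of the signal in liver and switches on Igf1, Igfals and Socs2. IGF1 circulates in a complex with a binding protein and the acid-labile subunit encoded by Igfals, and SOCS2 damps receptor signalling. Igfbp1 is an acute brake on IGF1 that is repressed by insulin and rises in fasting, Igfbp2 is the other binding protein that rises in fasting and protein shortage, and Igfbp4 inhibits IGF1 action in tissues. Igf1r, the receptor that answers IGF1, is scarce in adult hepatocytes.

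A pair of promoter stretches is shown because they hold letters tied to the inputs of this axis, growth hormone for Igfals and insulin for Igfbp1. Both are RefSeq sequences of GRCm38.p6 on the plus strand, ending at the base before the annotated start. For Igfals the stretch lies at chr17:24878111-24878230 and the capitals mark a match to TTCNNNGAA, the palindrome that STAT5 dimers recognise, at position -58 from that start. For Igfbp1 it lies at chr11:7197667-7197786 and the capitals mark CAAAACA, the core of the insulin response element bound by FOXO factors, at position -108.
Igfals: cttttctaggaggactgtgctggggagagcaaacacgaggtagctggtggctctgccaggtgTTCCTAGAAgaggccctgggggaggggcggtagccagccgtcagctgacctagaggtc
Igfbp1: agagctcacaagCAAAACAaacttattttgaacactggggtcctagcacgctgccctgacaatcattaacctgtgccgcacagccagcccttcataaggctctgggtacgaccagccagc
Both motifs were searched on both strands in the 250 bases before every RefSeq start, and TTCNNNGAA was found in 7.02% of 32851 windows and CAAAACA in 5.56%. Of the 10 genes, 9 had an entry, with 15 windows in all. Socs2 had no entry and was not searched. TTCNNNGAA was found only in Igfals, at -58 and, before an alternative start, at -236, and CAAAACA only in Igfbp1. A match is a description of letters, not of binding.

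In units of 1000000 estimated counts, the 46 female libraries held between 7.82 and 27.56 (median 22.58). The shallowest was Low Isoleucine replicate 5 at 24 months, and the one above it held 14.29. A 6-month Low Isoleucine library, replicate 3, was left out because Kdm5d, a gene of the Y chromosome, stood at 50.8 counts per 1000000 (CPM) in it and at no more than 0.568 CPM in the others. Levels are CPM scaled by TMM, a correction for differences in library composition, except those of the left-out library, which were not scaled. As a check of the tissue label, Alb, the main plasma protein of hepatocytes, lay between 40072 and 134436 CPM. The 24-month controls were uneven. Their summed level of 18 acute phase genes ran from 25791 to 207628 CPM, highest in replicates 5 and 1, against 19859 to 30764 CPM in the 6-month controls and 29456 to 39261 CPM in the 24-month Low Isoleucine group. Their summed level of 8 neutrophil markers was 538 CPM in replicate 4 and 458 CPM in replicate 1, against 9.17 to 66.7 CPM in the other 6. The 24-month Low Amino Acid group was uneven too, with acute phase sums of 28310 to 118350 CPM and neutrophil sums of up to 334 CPM. Its libraries were not left out in the same way. Control replicate 7 at 24 months, with the highest Kupffer cell (2958 CPM) and lymphocyte (156 CPM) marker sums of its group, was kept. Comparisons that use the 24-month controls were repeated without their replicates 1, 4 and 5, a choice made after seeing these sums.

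Levels spanned a wide range across the axis. Over the 46 libraries, Igfbp4 averaged 1176 ± 213 CPM (SD), Igf1 917 ± 230 CPM, Igfbp2 671 ± 215 CPM and Ghr 549 ± 150 CPM. Igfals averaged 102 ± 33.3 CPM, Stat5b 73.4 ± 14.2 CPM, Igfbp1 71.1 ± 73.8 CPM, Socs2 34.9 ± 17.7 CPM, Stat5a 21.1 ± 5.47 CPM and Igf1r 14.2 ± 3.0 CPM. Because these genes differ in length, they can be ranked only per kilobase of exon: Igfbp2 stood first at 363 CPM per kilobase, followed by Igfbp4 at 266, Igf1 at 92.6, Ghr at 60.6, Igfbp1 at 46.6 and Igfals at 32.3. Stat5b followed at 13.3, Socs2 at 3.66, Stat5a at 2.96 and Igf1r at 0.849 CPM per kilobase. Igfbp1 was the most variable gene, with a highest library 36.6 times its lowest, and Igfbp4 the steadiest at 1.98 times.

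**Figure D1:**
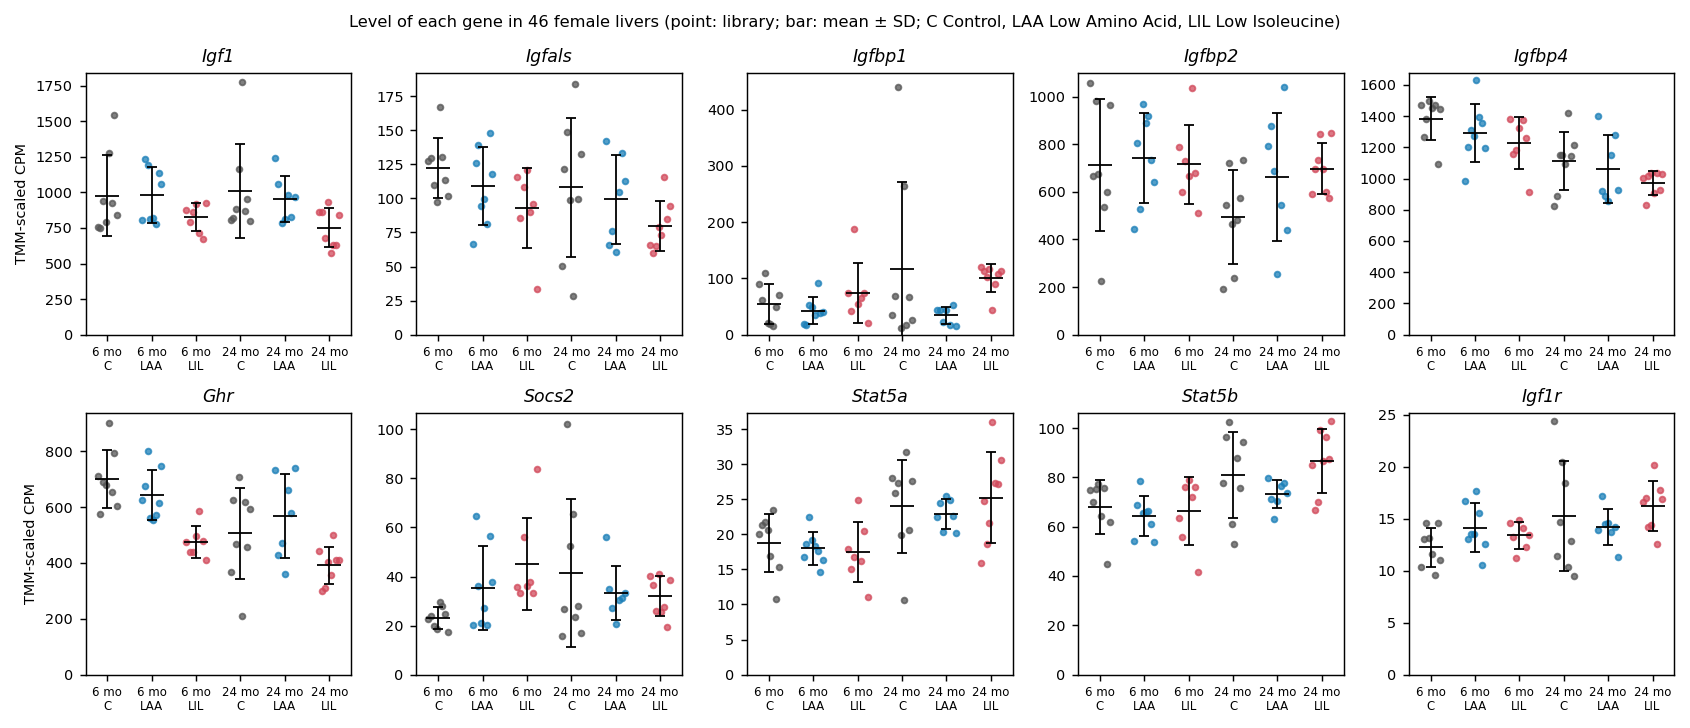
Level of each of the 10 genes (TMM-scaled CPM, linear axes from 0) in every female library, by age and diet. Points are libraries and bars the mean ± SD of 7 or 8 libraries. Ghr is lower on Low Isoleucine at both ages (475 and 392 CPM on average), and the 24-month controls spread widely.

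Ghr was the 1 gene of the 10 called with diet in the main fit, in averaged contrasts that called 7.41% and 3.36% of all genes. On the Low Isoleucine diet its RNA stood at 0.724 times the Control level and 0.714 times the Low Amino Acid level once both ages were averaged, and no difference of the Low Amino Acid diet from Control was detected. Igf1 and Igfals lay lower on Low Isoleucine at both ages without passing the test. Socs2, Igfbp1 and Igfbp2 moved with diet in single age groups in ways that did not pass it, and Stat5a, Stat5b and Igf1r were not called.

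Ghr encodes the growth hormone receptor (chromosome 15, 3317760 to 3583492, minus strand, GRCm38). In 6-month mice it ran from 574 to 902 CPM (median 684) on Control, from 555 to 802 CPM (median 620) on Low Amino Acid, and from 412 to 585 CPM (median 474) on Low Isoleucine. Of the 7 Low Isoleucine libraries, 6 lay below every library of the other diets, and replicate 6 reached just into their range. In 24-month mice it ran from 211 to 709 CPM (median 529) on Control, from 362 to 741 CPM (median 577) on Low Amino Acid and from 301 to 499.9 CPM (median 406) on Low Isoleucine. All 8 Low Isoleucine libraries lay below the median of each of the other diets, with overlap at the low end, where control replicate 5 was the lowest of all 46 libraries.

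Averaged over the ages, Ghr fell by 0.47 on the log2 scale on Low Isoleucine against Control (SE 0.11, 95% interval -0.69 to -0.24, 0.724 times the control level, adjusted p = 0.00954, edgeR quasi-likelihood test with Benjamini-Hochberg adjustment). Against Low Amino Acid it fell by 0.49 (SE 0.12, 95% interval -0.71 to -0.26, edgeR adjusted p = 0.0134). It was the 1 gene of the 10 called in each of these contrasts, where 7.41% and 3.36% of the 12617 genes tested were called. Low Amino Acid against Control, averaged, gave 0.02 for Ghr (95% interval -0.20 to 0.24, edgeR adjusted p = 0.952). None of the 10 was called in that averaged contrast, where 1.44% of all genes were. Of the 10, 1 (Igfbp1) had an unadjusted p under 0.05 in edgeR, beside 1878 of the 12617 genes tested. Leaving out each of the 46 libraries in turn kept both Ghr calls, with log2 differences of -0.52 to -0.42 against Control and -0.53 to -0.45 against Low Amino Acid. Without 24-month control replicates 1, 4 and 5 the difference from Control was -0.53 (edgeR adjusted p = 0.000714). Of those controls, replicates 5 and 1 held the lowest Ghr of the group (211 and 367 CPM) and replicate 4 the highest (709 CPM).

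At a single age the Ghr difference did not pass the test over all genes. At 6 months it was -0.56 (SE 0.16, edgeR adjusted p = 0.184) and at 24 months -0.37 (SE 0.16, edgeR adjusted p = 0.147). The change of the Low Isoleucine difference with age was 0.19 (SE 0.23, edgeR adjusted p = 0.874). Few genes of any kind were called at 6 months: 0.0238% on Low Isoleucine and 0% on Low Amino Acid against Control, and 0.0159% between the restricted diets. The corresponding shares at 24 months were 6.48%, 0.745% and 1.25%. None of the 10 was called in these 6 contrasts by edgeR. Per contrast, 1 to 3 of the 10 had an unadjusted p under 0.05 in edgeR, beside 1023 to 2820 of the 12617 genes tested. With the 6-month libraries fitted alone, Ghr was called on Low Isoleucine against Control (-0.56, edgeR adjusted p = 0.0128) and against Low Amino Acid (-0.44, edgeR adjusted p = 0.0302). At 24 months it was called against Control without control replicates 1, 4 and 5 (-0.50, edgeR adjusted p = 0.0267), of which 5 and 1 held the lowest Ghr of that group and 4 the highest. These are bulk livers, so fewer hepatocytes and less RNA per hepatocyte cannot be told apart; of the 5 hepatocyte markers tested, none was called in the averaged Low Isoleucine contrast (median log2 difference 0.09), while 6 of 18 acute phase genes fell and none rose, beside 7.41% of all genes called. In the same contrast the 10 Kupffer cell markers had a median of -0.62, with Vsig4 called lower, and the 8 neutrophil markers a median of -0.86, with S100a8 called lower. The part of these lists in the Ghr difference was not tested.

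**Figure D2:**
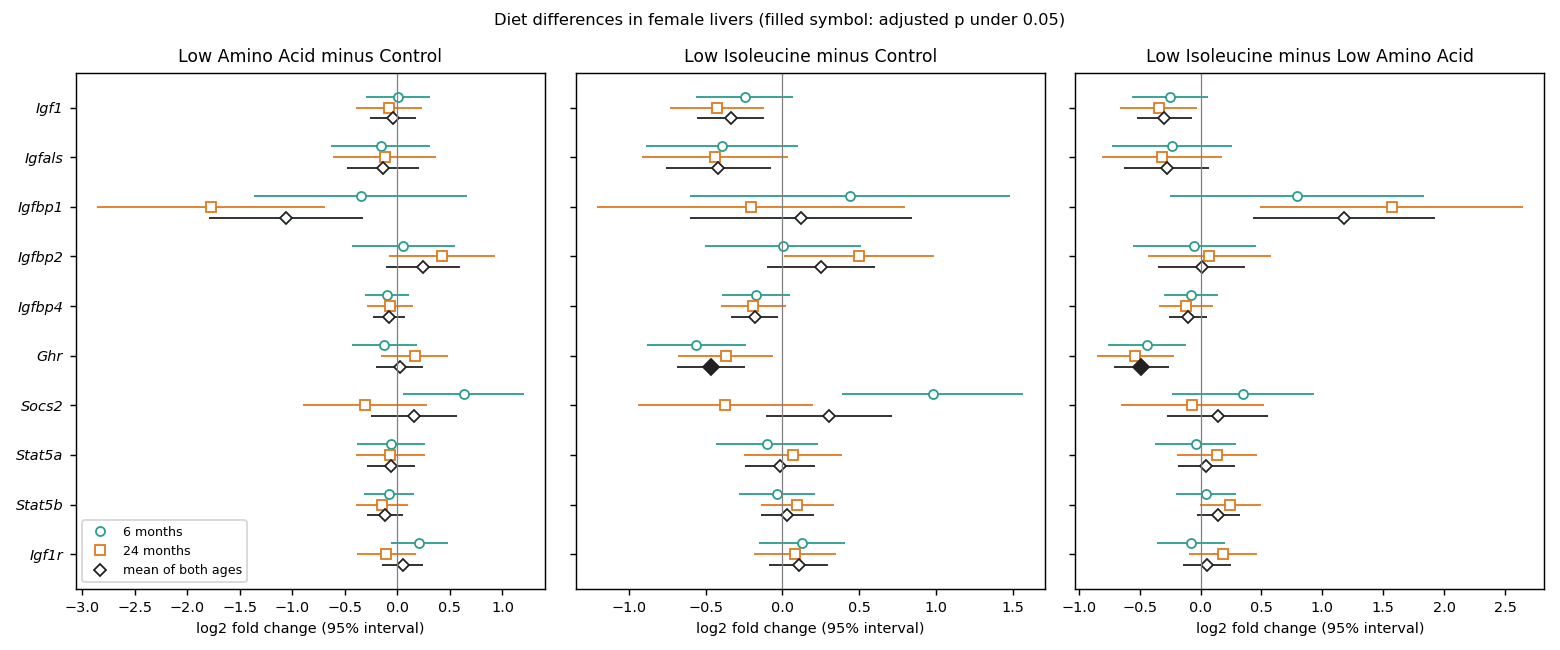
Fitted log2 fold changes of the 10 genes for the 3 diet contrasts at 6 months, at 24 months and averaged, with 95% intervals (filled symbols: edgeR adjusted p under 0.05). Only the averaged Ghr values on Low Isoleucine are filled (-0.47 against Control and -0.49 against Low Amino Acid).

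Igf1 encodes the circulating growth factor itself (chromosome 10, 87858265 to 87937042, plus strand). Its 6-month levels ran from 746 to 1545 CPM (median 884) on Control, from 776 to 1238 CPM (median 939) on Low Amino Acid and from 675 to 924 CPM (median 866) on Low Isoleucine. The low ends of the diets nearly coincided, and the Low Isoleucine group lacked the high libraries of the others. At 24 months the ranges were 799 to 1778 CPM (median 876), 783 to 1241 CPM (median 966) and 573 to 931 CPM (median 759). There, 7 of 8 Low Isoleucine libraries lay below the control median and all 8 below the Low Amino Acid median. The averaged log2 difference of Low Isoleucine from Control was -0.34 (SE 0.11, 95% interval -0.55 to -0.12, edgeR adjusted p = 0.0554), just short of the threshold. The same contrast passed in DESeq2 (-0.34, adjusted p = 0.0302) and in edgeR when any of 9 single libraries was left out. Over all single libraries left out in turn it ran from -0.36 to -0.25, with an edgeR adjusted p of up to 0.108. It was not called without 24-month control replicates 1, 4 and 5. At 24 months the difference was -0.43 (edgeR adjusted p = 0.0872) and depended on the high control replicate 5 at 1778 CPM, without which it was -0.26. Low Amino Acid left Igf1 at -0.04 on average (95% interval -0.26 to 0.18).

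Igfals, the acid-labile subunit whose promoter stretch is printed above (gene at chromosome 17, 24865997 to 24882010, plus strand), ran at 6 months from 97.6 to 167 CPM (median 120.3) on Control, 66.5 to 148 CPM (median 109) on Low Amino Acid and 33.1 to 121 CPM (median 96.0) on Low Isoleucine. At 24 months it ran from 28.4 to 184 CPM (median 111), 60.4 to 142 CPM (median 105) and 59.8 to 116 CPM (median 75.9). Medians stepped down in the order Control, Low Amino Acid, Low Isoleucine at both ages, with every pair of ranges overlapping. The averaged Low Isoleucine difference was -0.42 (SE 0.18, edgeR adjusted p = 0.138). Without the 24-month control replicates 1, 4 and 5, of which 5 and 1 held the lowest Igfals of that group, it was -0.59 and was called (edgeR adjusted p = 0.00952).

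Igfbp1 (chromosome 11, 7197782 to 7202546, plus strand) encodes the insulin-repressed binding protein. At 6 months it ran from 15.6 to 109 CPM (median 55.2) on Control, 16.6 to 91.7 CPM (median 39.5) on Low Amino Acid and 19.9 to 188 CPM (median 65.9) on Low Isoleucine. At 24 months it ran from 12.04 to 441 CPM (median 50.8), 15.2 to 52.4 CPM (median 43.1) and 43.0 to 119.5 CPM (median 110.2). The aged Low Isoleucine group was compact and high, 7 of its 8 libraries standing above every Low Amino Acid library, while the aged controls held both the lowest and the highest library of the 46. Between the restricted diets the averaged difference was 1.18 (SE 0.38, 2.26 times higher on Low Isoleucine, edgeR adjusted p = 0.0696), which missed the threshold in edgeR and passed it in DESeq2 (adjusted p = 0.0392). At 24 months the Low Amino Acid difference from Control was -1.77 (SE 0.55, edgeR adjusted p = 0.0976), a value that moved to -1.04 without control replicate 3 alone, the library at 441 CPM.

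Igfbp2 (chromosome 1, 72824503 to 72852474, plus strand) ran at 6 months from 226 to 1056 CPM on Control (median 671), with medians of 772 CPM on Low Amino Acid and 679 CPM on Low Isoleucine. At 24 months the controls ran from 193 to 733 CPM (median 513), the Low Amino Acid livers from 256 to 1040 CPM (median 690.0) and the Low Isoleucine livers from 576 to 847 CPM (median 698). Every aged Low Isoleucine library lay above the control median, and the ranges overlapped. The difference there was 0.50 (SE 0.25, edgeR adjusted p = 0.228). The low controls were again replicates 1 (193 CPM) and 5 (239 CPM), those highest in acute phase genes.

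Igfbp4 (chromosome 11, 99041244 to 99054392, plus strand), the most abundant member in CPM, lay at 1385 ± 139 CPM on Control, 1294 ± 186 CPM on Low Amino Acid and 1227 ± 164 CPM on Low Isoleucine at 6 months (SD, n = 8, 8 and 7). At 24 months it lay at 1110 ± 186, 1059 ± 218 and 973.5 ± 76.1 CPM (SD, n = 8, 7 and 8). All 8 aged Low Isoleucine libraries lay below the control median. The averaged Low Isoleucine difference was -0.18 (SE 0.08, edgeR adjusted p = 0.149) and no diet contrast called it.

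Socs2 (chromosome 10, 95385362 to 95417180, minus strand) encodes the feedback inhibitor that growth hormone induces. In 6-month mice it ran from 17.3 to 29.8 CPM (median 23.2) on Control, from 20.1 to 64.7 CPM (median 31.8) on Low Amino Acid and from 33.1 to 83.8 CPM (median 36.3) on Low Isoleucine. The Low Isoleucine and Control ranges did not overlap, the single such case among the 10 genes and the 9 pairs of groups compared; 0.317% of all genes tested showed this in the same pair. The left-out library stood at 14.2 CPM without TMM scaling, below every scaled control, and with that value the ranges overlap. The log2 difference was 0.98 (SE 0.30, 1.97 times Control), which edgeR did not call (adjusted p = 0.205). With only these groups in the fit it was called (0.98, edgeR adjusted p = 0.0398). At 24 months Socs2 ran from 15.6 to 102 CPM (median 27.4) on Control and from 19.5 to 41.0 CPM (median 32.1) on Low Isoleucine, a difference of -0.37 (SE 0.29, edgeR adjusted p = 0.473). The Low Isoleucine difference changed by -1.35 between the ages (SE 0.42, edgeR unadjusted p = 0.00238, adjusted p = 0.310), which was not called. No gene at all was called for a change of either diet's difference with age (0% of those tested for Low Amino Acid and 0% for Low Isoleucine). Unadjusted, 1298 and 1072 genes had p under 0.05 there in edgeR, Socs2 being the 1 member in each, and DESeq2 called 0 and 10 genes.

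The signal carriers and Igf1r were not called in any diet contrast. Stat5b (chromosome 11, 100780731 to 100850724, minus strand) averaged 68.0 CPM on Control, 64.3 CPM on Low Amino Acid and 66.4 CPM on Low Isoleucine at 6 months and 81.1, 73.2 and 86.8 CPM, in the same order, at 24 months. Its neighbour Stat5a (100859351 to 100885169, plus strand) averaged 18.8, 18 and 17.5 CPM and then 24.0, 22.9 and 25.3 CPM. Igf1r (chromosome 7, 67952827 to 68233668, plus strand) averaged 12.2, 14.1 and 13.4 CPM and then 15.3, 14.2 and 16.2 CPM. Averaged over the ages, the 95% intervals of the Low Isoleucine difference were -0.25 to 0.21 for Stat5a, -0.14 to 0.20 for Stat5b and -0.09 to 0.30 for Igf1r. Without 24-month control replicates 1, 4 and 5 Igf1r was called higher on Low Isoleucine (0.29, edgeR adjusted p = 0.0189); replicates 1 and 4 of those controls held the highest Igf1r of the group, 24.4 and 20.5 CPM.

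Between 6 and 24 months on Control, 3 of the 10 genes were called where 28.0% of all genes were. Ghr fell by 0.47 on the log2 scale (SE 0.16, 701 to 506 CPM, 7 of 8 aged libraries below the younger median, edgeR adjusted p = 0.0221). Igfbp4 fell by 0.32 (SE 0.11, 1385 to 1110 CPM, 8 of 8 below, edgeR adjusted p = 0.0246). Socs2 rose by 0.85 (SE 0.29, 23.0 to 41.3 CPM, 6 of 8 above, edgeR adjusted p = 0.0265). These calls rested on few animals: the Ghr call was lost without 6-month control replicate 5 or 24-month control replicate 1 or 5, the Igfbp4 call without 24-month replicate 1 or 2, and the Socs2 call without 24-month replicate 3 or 5. Without replicate 3, at 102 CPM, the Socs2 difference was 0.50. Without replicates 1, 4 and 5 together none of the 3 was called (Ghr -0.34, Igfbp4 -0.25, Socs2 0.79), and Stat5a (0.51, edgeR adjusted p = 0.0281) and Stat5b (0.43, edgeR adjusted p = 0.0168) were.

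Age differences were seen on the other diets too. On Low Isoleucine, where 7.34% of genes were called, Stat5a rose from 17.5 ± 4.34 to 25.2 ± 6.52 CPM (0.52, SE 0.17, edgeR adjusted p = 0.0491), a call lost in 34 of the 46 fits that left out a library. Stat5b stood at 0.39 (edgeR adjusted p = 0.0512) and Igfbp4 at -0.33 (edgeR adjusted p = 0.0562). On Low Amino Acid, where 1.61% of genes were called, none of the 10 was. Stat5a (0.35) and Igfbp4 (-0.29) had an unadjusted p under 0.05 in edgeR there, beside 1741 of the 12617 genes tested. Stat5a, Stat5b and Igf1r lay higher and Ghr, Igfals, Igfbp2 and Igfbp4 lower at 24 months on all 3 diets, Igf1r by only 0.01 on Low Amino Acid. The groups of different diets share no library in these contrasts. The share of all genes that kept their direction on all 3 diets was not taken. The age difference of Igf1 was 0.05 on Control, -0.13 on Low Isoleucine and -0.04 on Low Amino Acid.

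Among the aged controls, Ghr, Igfals and Igfbp2 were low in both livers of highest acute phase sum, and other genes of the axis differed between those livers. Replicate 5, with the highest sum (207628 CPM), had the highest Igf1 of the 8 (1778 CPM) and the lowest Ghr (211 CPM), Igfals (28.4 CPM), Stat5a (10.6 CPM) and Stat5b (52.9 CPM), with Igfbp4 at 1095 CPM and Socs2 at 65.5 CPM. Replicate 1, the next (119282 CPM), had the lowest Igfbp2 (193 CPM), Igfbp4 (824 CPM) and Socs2 (15.6 CPM) and the highest Igf1r (24.4 CPM), with Igf1 at 809 CPM, Stat5a at 28.0 CPM, Ghr at 367 CPM and Igfals at 50.2 CPM. No relation to the sum was tested. In the 24-month Low Amino Acid group, replicate 4 had the highest sum (118350 CPM) and the lowest Ghr (362 CPM), Igfals (60.4 CPM), Igfbp2 (256 CPM), Igfbp4 (853 CPM) and Socs2 (20.7 CPM) of its 7 libraries. The aged Low Isoleucine livers all had sums of 39261 CPM or less and held Ghr between 301 and 499.9 CPM. Between the ages on Control, 28.0% of all genes were called. There, 16 of 18 acute phase genes, 8 of 10 Kupffer cell markers, 8 of 8 neutrophil markers and 5 of 6 lymphocyte markers tested rose, and none of these fell. The part of these changes in the age differences of the axis was not tested beyond the fits without replicates 1, 4 and 5.

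**Figure D3:**
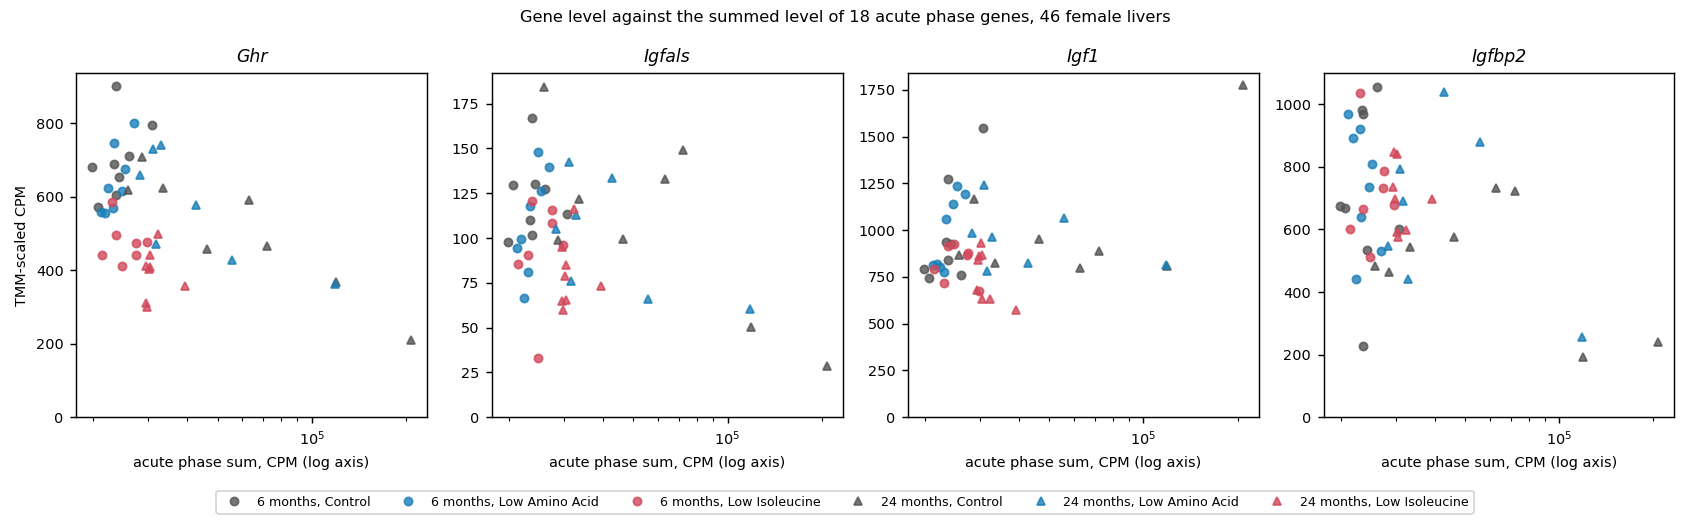
Ghr, Igfals, Igf1 and Igfbp2 (TMM-scaled CPM, linear axis) against the summed CPM of 18 acute phase genes (log axis) in 46 female livers, coloured by diet, with circles for 6 and triangles for 24 months. The 3 livers of highest sum (118350, 119282 and 207628 CPM), 2 aged controls and 1 aged Low Amino Acid liver, have low Ghr, Igfals and Igfbp2.

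Within groups, some of the genes varied together. Deviations of log2 CPM from the group mean were correlated over the 46 libraries for all 45 pairs, with permutations that shuffled libraries inside groups. In 9 pairs both Pearson's r and Spearman's rho passed after Benjamini-Hochberg adjustment over the 45. Pairs of genes outside the axis were not tested, so whether this share is particular to these genes is not known. The closest were Stat5a with Stat5b (r = 0.76, rho = 0.71), Igfals with Ghr (r = 0.74, rho = 0.68) and Igf1 with Socs2 (r = 0.65, rho = 0.74). For each of these, both raw permutation p-values were 1e-05, the smallest that 100000 resamples can give, and the adjusted p was 0.00015. Without the 2 libraries farthest from the median on the first gene, r was 0.66, 0.67 and 0.66 in turn, and without the 24-month controls 0.71, 0.63 and 0.70.

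Igfals also went with Stat5b (r = 0.65, rho = 0.57, permutation adjusted p = 0.00067 and 0.00056) and with Igfbp4 (r = 0.56, rho = 0.53, permutation adjusted p = 0.007 and 0.0052). Igfbp4 went with Igfbp2 (r = 0.45, rho = 0.47, permutation adjusted p = 0.023 and 0.017) and with Stat5b (r = 0.46, rho = 0.45, permutation adjusted p = 0.0099 and 0.016). The other 2 pairs were negative. Igfals and Igf1r had r = -0.54 and rho = -0.53 (permutation adjusted p = 0.0099 and 0.0047). Igf1 and Stat5a had r = -0.57 and rho = -0.44 (permutation adjusted p = 0.007 and 0.020), and r was -0.32 without the 2 farthest libraries. Igf1 and Ghr, ligand and upstream receptor, had r = -0.02 over all libraries, 0.56 among the 23 young ones and -0.28 among the 23 aged ones. It was 0.31 without the 2 farthest libraries and 0.39 without the 24-month controls, of which replicate 5 held the highest Igf1 and the lowest Ghr.

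**Figure D4:**
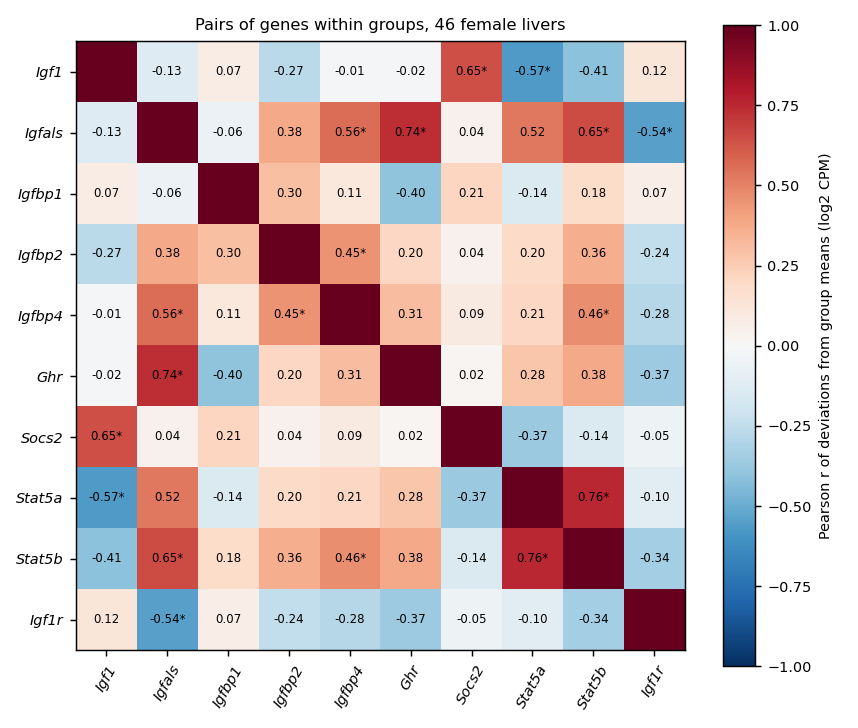
Pearson's r between the 10 genes, from deviations of log2 CPM from the group mean in 46 female livers (red positive, blue negative). Asterisks mark the 9 pairs whose r and rho both passed the adjusted permutation test, 7 positive and 2 negative.

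The genes outside the axis whose deviations were most like those of single members were searched among 11256 genes with a mean of at least 1 CPM, as a description without a test. For Igf1 they were Dhx9 (r = 0.70), an RNA helicase, Fkbp5 (r = 0.68), a glucocorticoid-induced chaperone, and Tent2 (r = 0.68), a poly(A) polymerase. Fkbp5 was also among the 3 closest to Socs2 (r = 0.58), after Fam210b (r = 0.59) and Zc3h12b (r = 0.59). Igfbp1 was closest to Ddx28 (r = 0.68), H6pd (r = 0.66), which supplies NADPH inside the endoplasmic reticulum, and Plscr1 (r = 0.62). Igfbp2 was closest to Flvcr2 (r = 0.71), Atad3a (r = 0.70) and Plbd2 (r = 0.70). Without the 24-month controls the values were 0.66, 0.57 and 0.58 for the 3 genes closest to Igf1, in the order given, and 0.57, 0.58 and 0.53 for those of Igfbp1. They were 0.57, 0.71 and 0.73 for those of Igfbp2, and 0.42 for Fam210b, 0.39 for Zc3h12b and 0.40 for Fkbp5 with Socs2.

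Other genes of the pathway were read from lists. Of 15 tested IGF ligands, binding proteins, proteases, receptors and adaptors, 1 was called on Low Isoleucine against Control at 24 months, a share near the 6.48% of all genes: the insulin receptor substrate Irs1 (0.72, SE 0.20, edgeR adjusted p = 0.0255). The median of the list was 0.01 and that of all genes -0.02. Irs2, its hepatic partner, was called higher between the restricted diets, on the Low Isoleucine side, averaged over the ages (0.57, SE 0.14, edgeR adjusted p = 0.0203). That contrast called 3.36% of all genes. Igf2 and Igfbp3 were not called in any diet contrast, and their averaged Low Isoleucine differences from Control were 0.02 and -0.01. Between the ages on Control, where 28.0% of all genes were called, Irs2 (0.50) and Grb2 (0.35) rose and Insr (-0.26), Grb10 (-0.74) and Igf2r (-0.30) fell.

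Of 13 tested growth hormone receptor signalling genes, 2 fell on Low Isoleucine at 24 months, where 6.48% of all genes were called: Stat3 (-0.76, SE 0.18, edgeR adjusted p = 0.00694), the factor that cytokines such as IL-6 activate, and Socs3 (-1.89, SE 0.50, edgeR adjusted p = 0.0175), its feedback inhibitor. The median of the list was -0.28. Both had risen between the ages on Control (1.08 and 2.59), along with the phosphatases Ptpn6 (0.88) and Ptpn1 (1.15) and with Sirpa (1.12). That age contrast called 28.0% of all genes. Of the 18 acute phase genes, 12 fell on Low Isoleucine at 24 months, and their part in the change was not tested. Jak2 was at 0.10 and Cish, another STAT5 target, at -1.0 (SE 0.37, edgeR adjusted p = 0.0879) in the same contrast. At 6 months Cish stood at 0.80 (SE 0.37, edgeR adjusted p = 0.463), on the same side of 0 as Socs2 at both ages.

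Downstream of IGF1 and insulin, 3 of 14 genes of the PI3K, AKT and FOXO list were called on Low Isoleucine against Control averaged over the ages, where 7.41% of all genes were (list median -0.01). Pik3r1, the regulatory subunit of PI3K, fell by 0.29 (SE 0.08, edgeR adjusted p = 0.0185), Akt2 fell by 0.20 (SE 0.06, edgeR adjusted p = 0.0339), and Gsk3b rose by 0.17 (SE 0.05, edgeR adjusted p = 0.0403). With Low Amino Acid as the reference, where 3.36% of all genes were called, Pik3r1 was lower too (-0.39, SE 0.08, edgeR adjusted p = 0.00409). With age on Control, where 28.0% of all genes were called, Akt1 rose (0.29) and 9 of the 14 fell, among them Foxo3 (-0.80), Tsc1 (-0.46), Foxo1 (-0.45), Pik3cb (-0.42), Tsc2 (-0.35), Pdpk1 (-0.25), Pik3ca (-0.22) and Gsk3b (-0.20). On Low Isoleucine, where 7.34% of all genes were called with age, Pik3r1 (-0.36) and Foxo3 (-0.61) fell.

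Of 9 tested insulin- and fasting-regulated genes, Srebf1, the insulin-driven activator of lipid synthesis, fell by 0.96 on Low Isoleucine against Control (SE 0.18, edgeR adjusted p = 0.000874) and stood at -1.16 against Low Amino Acid (SE 0.18, edgeR adjusted p = 0.000185), averaged over the ages. These averaged contrasts called 7.41% and 3.36% of all genes, in that order. Against Low Amino Acid, the fasting gene Pdk4 was higher on Low Isoleucine (1.29, SE 0.37, edgeR adjusted p = 0.0421). Pck1, the gluconeogenic enzyme, was at 0.04 on Low Isoleucine. It fell with age on Control (-0.75), where 28.0% of all genes were called, as did Angptl4 (-0.57), Ppargc1a (-0.77) and Trib3 (-1.50).

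Genes known to follow the sex pattern of growth hormone secretion were read in the same way. Of 14 tested female-biased genes, 1 was called on Low Isoleucine against Control, averaged, a share near the 7.41% of all genes. This was Cyp17a1, which was higher (1.11, SE 0.28, edgeR adjusted p = 0.0116), and the list median was -0.20. Of 8 tested male-biased genes, none was called in that contrast (list median -0.30). With Low Amino Acid as the reference, where 3.36% of all genes were called, Hsd3b5 was lower (-2.86, SE 0.54, edgeR adjusted p = 0.0019). With age on Control, where 28.0% of all genes were called, Cyp17a1 (-1.21) and Cyp2b9 (-0.83) fell in the first list. In the second, Hsd3b5 (-2.54), Susd4 (-2.59), Elovl3 (-1.70) and Slco1a1 (-2.56) fell and Gstp1 (0.56) rose.

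In males, another gene of the axis stood out: Igfals was much lower in young restricted mice. In the authors' deposited table it was at -1.40 on Low Amino Acid (adjusted p = 9.36e-06) and -1.78 on Low Isoleucine (adjusted p = 2.73e-06) against Control in young males. The authors' deposited table also called Igfbp4 in young males (-0.45 with adjusted p = 0.000638 and -0.48 with adjusted p = 0.00104 on the 2 diets). Stat5b was the third, at -0.40 (adjusted p = 0.0234) and -0.38 (adjusted p = 0.0492) in the authors' deposited table. So 3 of the 10 were called on each diet, where the authors' deposited table called 21.1% of all genes on Low Isoleucine and 16.3% on Low Amino Acid. Ghr was not among them, at 0.11 and -0.28 in the authors' deposited table, nor was Igf1, at 0.20 and 0.09.

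In old males the authors' deposited table called none of the 10 on either diet, with 0.0563% and 0.0676% of all genes called. There, 1 and 2 of the 10 had an unadjusted p under 0.05, and the share of all genes with such a p was not taken. Igfals stood at 0.01 and 0.05 there in the authors' deposited table, and Igfbp2 at 1.09 on Low Isoleucine (adjusted p = 0.155). Between young and old male controls the authors' deposited table had Igfals at -0.74 (adjusted p = 0.00813), Igfbp2 at -1.48 (adjusted p = 0.00173) and Igfbp4 at -0.53 (adjusted p = 0.000134), with 20% of all genes called. On Low Isoleucine the age difference of Igfals in males was 1.09 (adjusted p = 0.00577) and that of Stat5b 0.50 (adjusted p = 0.0263) in the authors' deposited table, with 7.08% of all genes called. The male comparisons of young mice and of age share their young groups.

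For females, the authors' deposited table called none of the 10 on Low Amino Acid or Low Isoleucine at either age; it called 0.0116% and 0.0931% of all genes in young and 5.53% and 9.24% in old females. Ghr stood in the authors' deposited table at -0.57 (adjusted p = 0.136) on Low Isoleucine in young and -0.25 (adjusted p = 0.370) in old females. With age on Control it called Ghr (-0.54, adjusted p = 0.0107) and Igfbp4 (-0.32, adjusted p = 0.0269) in the authors' deposited table, with 23.5% of genes called, and on Low Isoleucine none, with 0.739% called. Igfals in young females stood at -0.21 and -0.49 on the 2 diets in the authors' deposited table, and whether the sexes differ was not tested.

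**Figure D5:**
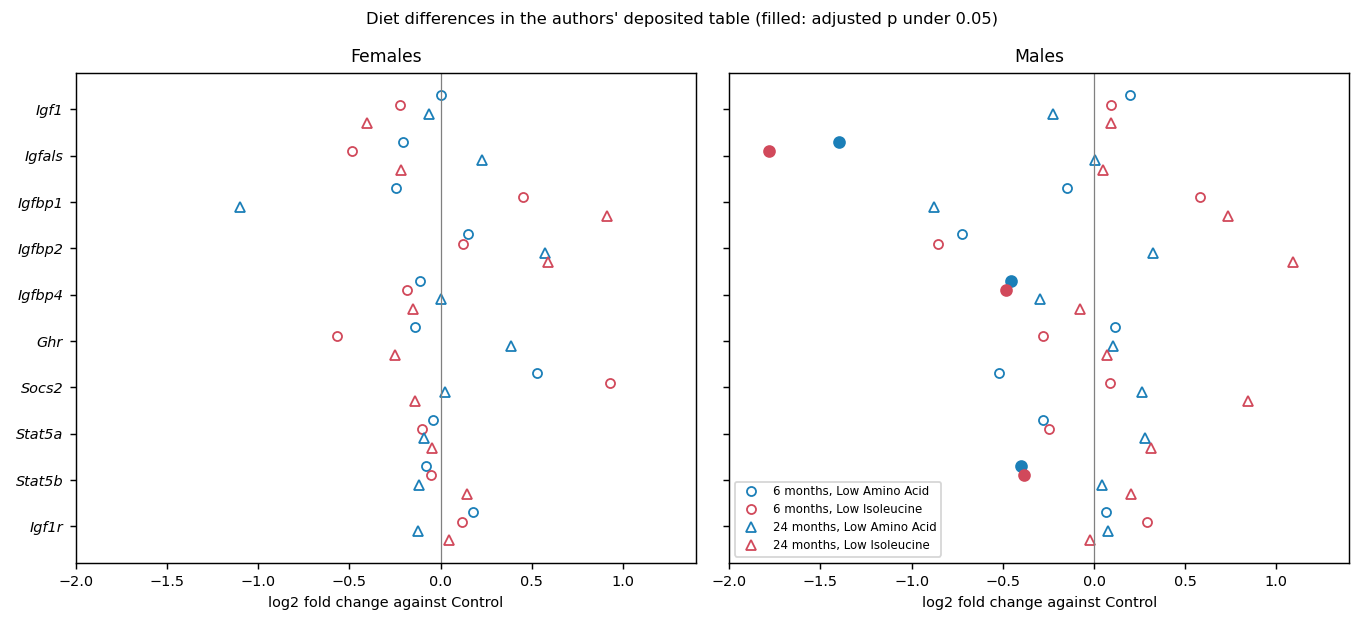
Log2 fold changes against Control of the 10 genes from the authors' deposited table, females left and males right, by age (circles young, triangles old) and diet (filled: adjusted p under 0.05). In young males Igfals (-1.40 and -1.78), Igfbp4 and Stat5b are filled on both diets; no symbol is filled for females or old males.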

How the data were processed

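RNA of snap-frozen livers was made into stranded polyA libraries whose lanes were merged, per the labels' protocols. The deposited gene table holds estimated counts (82.4% whole, within 1e-09), which were rounded. It has 51912 lines: 17275 are filled under all columns and were used, and 34637 hold 47 cells each. The 45 male columns were not used, because the shorter lines leave their alignment in doubt. The submitters' processing notes name edgeR, limma, R 3.4.3 and GRCm38.p5 without roles, and no source used here gives the aligner. Symbols and positions came from GENCODE M21 (17251 identifiers matched).

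Libraries were grouped by the labels. One edgeR 4.0.16 quasi-likelihood fit (R 4.3.3, limma 3.58.1, TMM, filterByExpr) covered 46 libraries in 6 groups, 12617 genes and 14 contrasts, with Benjamini-Hochberg adjustment over all genes tested and calls at adjusted p under 0.05. The fit was tested on simulated counts. Alternatives were DESeq2 1.42.0, no filter, fewer groups, quality weights, left-out libraries and the left-out library kept. Titles give 19 of the 46 libraries a number that another library of the group also has (8 numbers), with a letter; the labels do not explain either. The main fit treats libraries as independent, and a voom fit with that number as a random block was added after seeing the data. The p-values measure the spread between these samples, which may be technical. Correlations used 100000 permutations (scipy 1.17.1).

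The authors' deposited tables give log2 fold changes, p-values and an F statistic (a score per gene, not reported here), per the file headers; no source used here gives the model and libraries behind them. The column headed for the Low Isoleucine groups equals older minus younger mice on that diet, to within 5e-08. Across 11952 genes the deposited female log2 values and those fitted here had r between 0.848 and 0.970.

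The 10 genes and the pathway lists were chosen with earlier results of these data known. Named from the lists are the genes called in a contrast described, otherwise up to 2 examples, and the 3 genes closest to each of 4 members. Some genes called in these lists are not reported here.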

Additional observations from a re-analysis of the deposited data

Results flagged for a closer look

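In 7 of the 60 gene and group pairs examined, 1 library stood apart from the rest of its group by Dixon's criterion at the 95% level; chance flags about 1 in 20 groups. Igf1 was 1778 CPM in 24-month Control replicate 5, the highest of its group, and Stat5a was 10.6 CPM in the same liver, the lowest; this is the liver with the highest acute phase sum. Igfals was 33.1 CPM and Igfbp4 911.7 CPM in 6-month Low Isoleucine replicate 8, both the lowest of that group. Igfbp1 was 43.0 CPM in 24-month Low Isoleucine replicate 5, the lowest of its group and the library of lowest depth. Igfbp2 was 226.4 CPM in 6-month Control replicate 5, and Stat5b was 45.0 CPM in 6-month Control replicate 7, each the lowest of the group.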

How the results depend on the processing

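Ghr on Low Isoleucine, averaged over the ages, was called in every alternative run, against Control and against Low Amino Acid. Other counts of the 10 genes called moved, and the cause was not tested. Each percentage below is the share of all genes called in the same fit. At 6 months the Low Isoleucine count against Control went from 0 to 1 (Ghr; 0.544%) with the same age alone and to 2 (Ghr, Socs2; 0.211%) with the 2 groups alone. At 24 months it went from 0 to 3 (Ghr, Igfals, Igf1r; 6.23%) without control replicates 1, 4 and 5, and leaving out single libraries gave 0 to 1. For the average it went from 1 to 2 with DESeq2 (Igf1 added; 9.27%) and to 3 without those replicates (9.0%), with 1 to 2 on leaving out single libraries. At 24 months, Low Amino Acid against Control gave 1 (Igfbp1; 2.39%) with DESeq2 and 0 to 1 on leaving out single libraries. Between the restricted diets at 6 months it was 1 (Ghr) with the same age alone (1.66%) and 1 with the 2 groups alone (1.69%). Between them at 24 months it was 1 with DESeq2 (Ghr; 2.61%), 1 with the 2 groups alone (Igfbp1; 0.617%), 2 with quality weights (6.59%), 1 without the 3 controls (Ghr; 2.61%) and 0 to 1 on leaving out single libraries. Between them on average it was 2 with DESeq2 (Igfbp1 added; 5.63%), 3 with quality weights (Igf1 also; 12.8%), 2 without the 3 controls (5.75%) and 1 to 2 on leaving out single libraries.

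With age on Control the count went from 3 to 0 with the 2 groups alone (17.9%) and to 1 with quality weights (Igfbp4; 20.3%), and from 1 to 4 on leaving out single libraries. On Low Amino Acid it was 1 (Stat5a; 2.74%) with the 2 groups alone. On Low Isoleucine it went from 1 to 3 (Stat5a, Stat5b, Igfbp4) with DESeq2 (10.9%), quality weights (8.55%), the left-out library kept (8.87%) or the 3 controls left out (10.3%), to 0 without a filter (4.98%) and 0 with the 2 groups alone (3.12%), and from 0 to 3 on leaving out single libraries. The Igf1r age difference on Control, 0.32, became -0.0505 without the 3 controls and -0.0587 with the library of lowest depth out too.

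Both of the next settings were chosen after seeing the data, as was the fit without the 3 controls. Leaving out the library of lowest depth with the 3 controls gave 1 (0.261%) and 3 (4.39%) for Low Isoleucine against Control at 6 and 24 months, 3 (8.57%) for the average, and 1 (3.0%) and 2 (7.93%) between the restricted diets at 24 months and on average. In a voom fit with the number in the title as a random block (consensus correlation 0.111), the averaged Ghr difference was -0.42 against Control (limma adjusted p = 0.0346; 4.74%) and -0.46 against Low Amino Acid (limma adjusted p = 0.0344; 247 of 12617 genes). That fit called 0 of the 10 with age on Low Isoleucine (0.642%), and with age on Control it called Ghr and Igfbp4 but not Socs2 (0.60, limma adjusted p = 0.152; 21.4%).

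Of the values for single genes, 197 kept their direction and side of the threshold, 53 gained a call, 20 lost one and 2 reversed. The lowest depth was 7.82 in units of 1000000 counts. No paired analysis was possible because no title number is shared between the diet groups of one age, and the labels give no other replicate number.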
